A study of Sus scrofa with 6 samples.

Results

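CPT1B, ACADVL and FABP3 are 3 genes through which muscle takes fatty acids towards oxidation, out of 6765 genes named on the Affymetrix Porcine Genome Array, where 4 of 23999 probe sets read them. Members were the probe sets whose symbol in the platform annotation was exactly one of the 3 names: Ssc.15966.1.S1_at for CPT1B, Ssc.16637.1.S1_at and Ssc.21669.1.S1_at for ACADVL, and Ssc.4360.1.A1_at for FABP3. All 4 passed the filter on dim probe sets. The RNA came from the longissimus dorsi, a back muscle, of boars of the control breed Large White (3 animals) and of the Northeastern Indigenous breed (3 animals). All 6 boars were 150 days old and were raised alike, per the labels, which name no treatment. Each array is 1 animal, called a biological replicate in the labels, and the labels give no litter or family for the animals.

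Long-chain fatty acids cross the muscle cytosol bound to FABP3, the heart and skeletal muscle fatty acid binding protein. They are activated to acyl-CoA and coupled to carnitine by CPT1B, the muscle form of carnitine palmitoyltransferase on the outer mitochondrial membrane, which malonyl-CoA inhibits. ACADVL, the very long-chain acyl-CoA dehydrogenase of the inner membrane, then carries out the first step of beta-oxidation. CPT1B and ACADVL are among the known targets of the PPAR nuclear receptors. FABP3 is most abundant in oxidative muscle fibres.

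Values are log2 intensities after quantile normalization, in which 1 unit is a doubling of brightness, and levels of different probe sets are not compared with each other. Every difference is the Northeastern Indigenous mean minus the Large White mean. It was fitted with limma over 14399 probe sets, and a call needed a Benjamini-Hochberg adjusted p under 0.05. At that threshold 0 of 14399 probe sets (0%) were called, while 18.8% had an unadjusted p under 0.05 (8.82% higher and 9.97% lower in Northeastern Indigenous boars). The breeds did not overlap in 25.1% of probe sets, with Northeastern Indigenous boars higher in 14.2% and lower in 10.9%. The median difference over all probe sets tested was 0.10, and -0.01 on the intensities as deposited.

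The Large White arrays were unlike one another. The defining muscle gene DES, for the intermediate filament desmin, read 7.26, 13.23 and 11.59 on Large White replicates 1, 2 and 3, and 13.21 ± 0.38 (SD, n = 3) in Northeastern Indigenous boars. ADIPOQ, for the fat-cell hormone adiponectin, read 13.64, 7.22 and 12.50 on the same arrays against 7.38 ± 0.81 (SD, n = 3). Over the 10 muscle fibre markers tested, Large White replicates 1, 2 and 3 lay at a median of -3.40, 0.03 and -0.40 from the Northeastern Indigenous mean. Over the 8 adipocyte markers tested they lay at 3.50, -0.05 and 2.03. The breed difference was positive for 10 of 10 muscle fibre and 1 of 8 adipocyte markers, and 0 of them passed. Macrophage and leukocyte markers (9 tested) lay at 2.31, 0.75 and 2.23 on the same 3 arrays, and fibroblast markers (7 tested) at 2.07, 0.56 and 1.55. Large White replicate 2 thus read close to the Northeastern Indigenous arrays for muscle fibre and adipocyte markers, and less so for the other 2 lists. Replicates 1 and 3 also stood apart from the other 4 arrays on the first principal component (69.4% of variance). Actin 3' minus 5' control signals, a sign of RNA integrity, lay from -0.28 to 0.21 on the 6 arrays, highest on Large White replicate 1. The same measure for GAPDH lay from -0.49 to -0.12, highest on Large White replicate 3, with replicate 1 at -0.17. In bulk tissue, fewer muscle cells and less of a transcript per cell cannot be told apart.

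CPT1B was dim on all 3 Large White arrays compared with all 3 Northeastern Indigenous arrays. It read 5.29, 7.87 and 6.67 on Large White replicates 1, 2 and 3. On Northeastern Indigenous replicates 1, 2 and 3 it read 8.90, 9.01 and 9.39. The breeds did not overlap, and the lowest Northeastern Indigenous array stood above the highest Large White array, replicate 2. The means were 9.10 ± 0.25 and 6.61 ± 1.29 (SD, n = 3 per breed), a difference of 2.49 ± 0.61 (SE; 95% interval 1.05 to 3.93) or 5.62-fold. It did not pass (limma unadjusted p = 0.0046, adjusted p = 0.224). The reading of 5.29 on Large White replicate 1 lay under the filter's limit of 5.85 for the mean of a probe set, and without that array the difference was 1.83. In deposited intensity the Large White arrays read 41.7, 222.0 and 106.0 and the Northeastern Indigenous arrays 443.4, 490.3 and 632.2.

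ACADVL had the order of Large White arrays of CPT1B on both of its probe sets, which is also the order of the muscle fibre median. The brighter one read 9.65, 10.60 and 9.87 on Large White replicates 1, 2 and 3. It read 11.42, 11.95 and 11.85 on the Northeastern Indigenous replicates. Large White replicate 2 was again the highest of its breed, and every Northeastern Indigenous array stood above it. The difference was 1.70 ± 0.33 (SE; 95% interval 0.93 to 2.47), or 3.24-fold, and did not pass (limma unadjusted p = 0.0012, adjusted p = 0.224).

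The second ACADVL probe set is a separate reading of the same gene on the same arrays. It read 7.66, 8.69 and 7.94 on the Large White and 9.59, 9.94 and 9.48 on the Northeastern Indigenous arrays, again without overlap. Its difference was 1.58 ± 0.34 (SE), or 2.99-fold (limma adjusted p = 0.224). The probe sets correlated over the 6 arrays at r = 0.98, and their deviations from the Northeastern Indigenous mean differed by at most 0.31 on any array. They share RNA and array, so they are not independent samples of the breeds.

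FABP3 differed from the other members in which Large White array was highest. It read 14.83, 13.09 and 14.18 on Large White replicates 1, 2 and 3, and 13.95, 14.28 and 14.22 on the Northeastern Indigenous replicates. After quantile normalization replicate 1, the array with the dimmest muscle fibre markers, was the brightest of the 6 for this muscle carrier. As deposited it was not. Replicate 2 was the dimmest on both scales. The breeds overlapped, with means of 14.15 ± 0.17 and 14.03 ± 0.88 (SD, n = 3 per breed). The difference was 0.12 ± 0.41 (SE; 95% interval -0.84 to 1.07) and did not pass (limma adjusted p = 0.877).

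**Figure D1:**
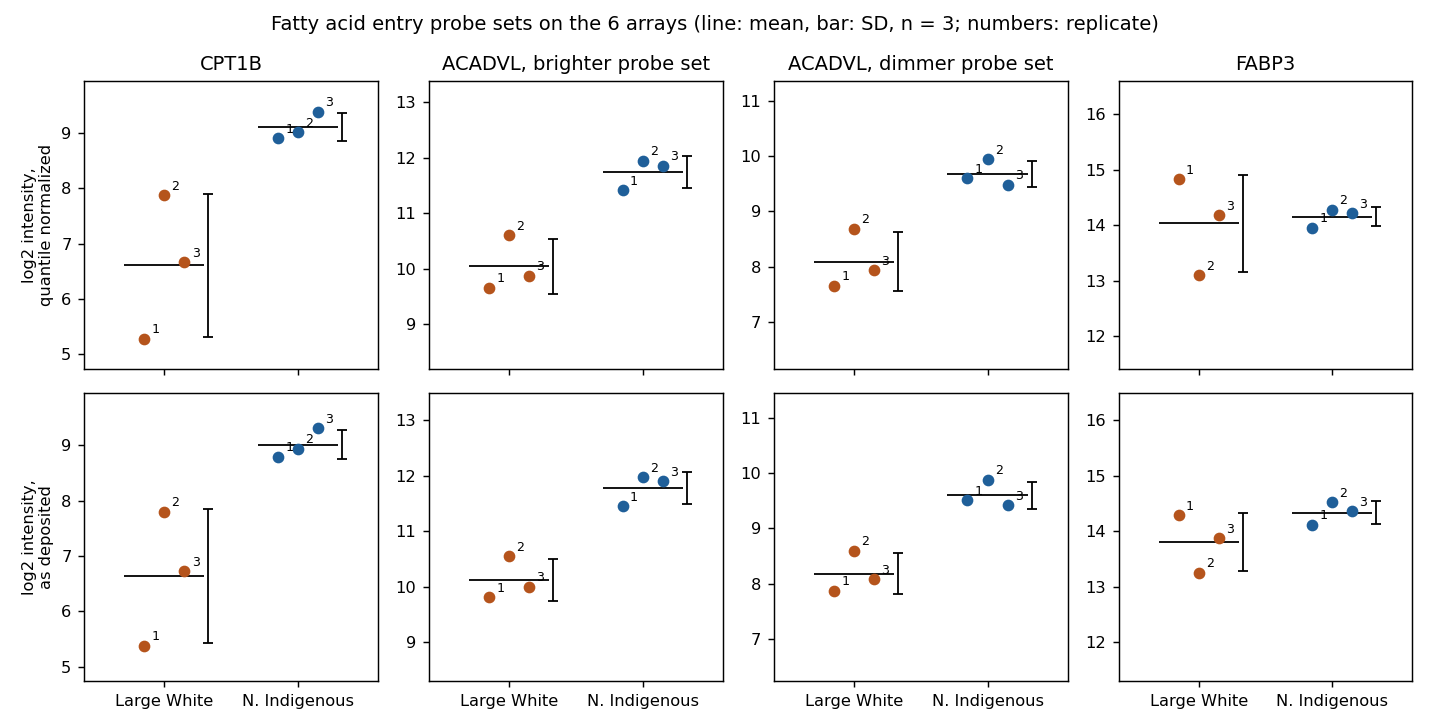
Log2 intensity (vertical axes) of the 4 probe sets on the 6 arrays, quantile normalized in the upper row and as deposited in the lower row. Points are arrays numbered by replicate, lines are breed means and bars are SDs (n = 3; N. Indigenous stands for Northeastern Indigenous). CPT1B and both ACADVL probe sets have no overlap between breeds, with Northeastern Indigenous boars higher, as in 14.2% of all probe sets tested. FABP3 overlaps, with Large White replicate 1 at 14.83 in the upper and 14.28 in the lower row.

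Scaling mattered for FABP3 more than for the other members. As deposited, its log2 intensity was 14.28, 13.25 and 13.87 on Large White replicates 1, 2 and 3, and 14.11, 14.52 and 14.36 on the Northeastern Indigenous replicates. Large White replicate 1 then lay inside the Northeastern Indigenous range, and replicates 2 and 3 lay below it. The difference was 0.53 ± 0.32 (SE; limma adjusted p = 0.372) as deposited, and 0.67 ± 0.32 (limma adjusted p = 0.283) with arrays centred on their medians. The same scalings gave 2.38 and 2.52 for CPT1B, and 1.66 and 1.80 for the brighter ACADVL probe set.

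The spread within Large White was larger than within Northeastern Indigenous boars for every member. The SD was 1.29 against 0.25 for CPT1B, 0.50 against 0.28 and 0.53 against 0.24 for the ACADVL probe sets, and 0.88 against 0.17 for FABP3. Of all probe sets tested, 71.7% had the larger SD in Large White, so this direction was common on these arrays.

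The members were compared with each other by taking, on each array, the deviation of 1 gene from its Northeastern Indigenous mean minus that of another. CPT1B minus FABP3 came to -4.49, -0.17 and -2.47 on Large White replicates 1, 2 and 3. ACADVL minus FABP3 came to -2.76, -0.08 and -1.90, and CPT1B minus ACADVL to -1.73, -0.09 and -0.57. On replicate 2 the 3 genes deviated by nearly the same amount, and on replicates 1 and 3 they parted. The breed differences of CPT1B and ACADVL exceeded that of FABP3 by 2.37 ± 1.26 and 1.58 ± 0.79 (SE), and that of CPT1B exceeded ACADVL's by 0.79 ± 0.51. Each of the 3 comparisons gave p = 0.2 in a two-sided exact permutation test of 3 against 3 arrays (adjusted p = 0.2 over the 3), and 0.1 is the smallest p that 3 against 3 allows. This test could not pass a threshold of 0.05, so whether the members' differences differ from each other stays unanswered. These comparisons used quantile normalized values. As deposited, the breed differences of CPT1B, ACADVL and FABP3 were 2.38, 1.66 and 0.53, so FABP3 lay closer to the other members on that scale.

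Against Large White replicate 2 by itself, all 4 probe sets lay about 1 log2 unit higher in the Northeastern Indigenous mean. The distances were 1.23 for CPT1B, 1.14 and 0.99 for ACADVL, and 1.06 for FABP3, which are 2.34-fold, 2.20-fold, 1.98-fold and 2.08-fold. On each of them replicate 2 lay below every Northeastern Indigenous array, as it did for 30% of all probe sets. Over all probe sets the median distance was -0.01. A distance at least as large was found for 3.08%, 3.68%, 5.24% and 4.44% of probe sets in the same order. As deposited the distances were 1.22, 1.23, 1.00 and 1.08. On that array the median over the 8 slow fibre markers tested was 0.16 below the Northeastern Indigenous mean, and the macrophage and leukocyte median was 0.75 above it. Their part in the members' distances was not tested. Replicate 2 is 1 animal, so these values have no spread within Large White behind them. In a limma fit of that array against the 3 Northeastern Indigenous arrays, which assumes that the lone array varies like the other breed, the adjusted p was 0.260, 0.231 and 0.162 for CPT1B, ACADVL and FABP3.

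**Figure D2:**
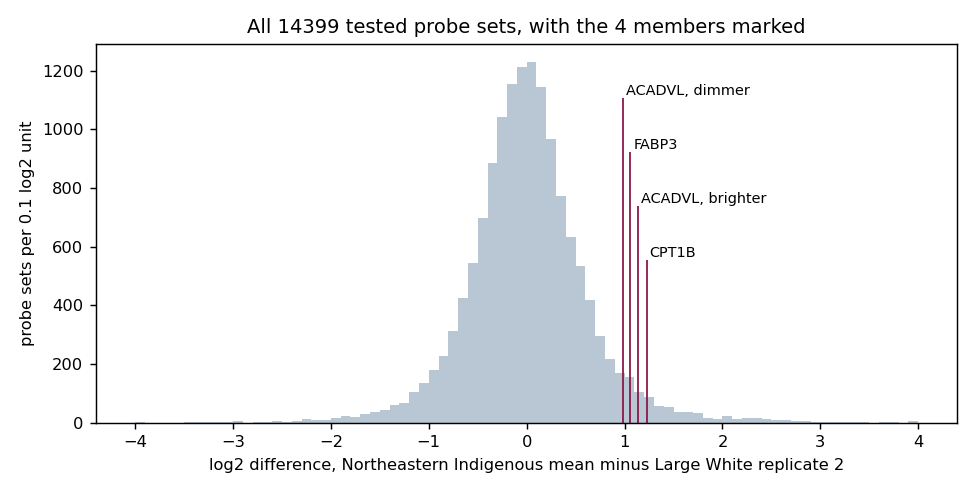
Number of probe sets (vertical axis, per 0.1 log2 unit) by the Northeastern Indigenous mean (n = 3) minus Large White replicate 2 (horizontal axis, log2; values beyond 4 in either direction stand in the end bins). Vertical lines mark the 4 member probe sets, which lie between 0.99 and 1.23 while the median of all 14399 is -0.01.

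The size of each difference changed with the Large White arrays that entered, least for ACADVL. Without replicate 1, CPT1B differed by 1.83, ACADVL by 1.50 and FABP3 by 0.51. Without replicate 2, CPT1B differed by 3.12 ± 0.42 and ACADVL by 1.98 ± 0.25 (SE), and both passed (limma adjusted p = 0.0068 and 0.0061), as did the second ACADVL probe set at 1.87 (0.0067). In that fit 30.7% of all probe sets passed, and 15.4% of all probe sets did so with Northeastern Indigenous boars higher, so a call there is common. FABP3 then turned to -0.36 ± 0.22 (limma adjusted p = 0.245) on the quantile normalized values. As deposited, its Northeastern Indigenous mean lay 0.05 above Large White replicate 1 and 0.47 above replicate 3, so this sign depended on the scaling. With the mean of the adipocyte markers minus that of the muscle fibre markers as a covariate, the differences were 1.26 ± 0.32, 1.28 ± 0.29 and 0.95 ± 0.16 for CPT1B, ACADVL and FABP3 (limma adjusted p = 0.289, 0.243 and 0.174). The part of fat and muscle content in the members' differences was not tested beyond these values.

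**Figure D3:**
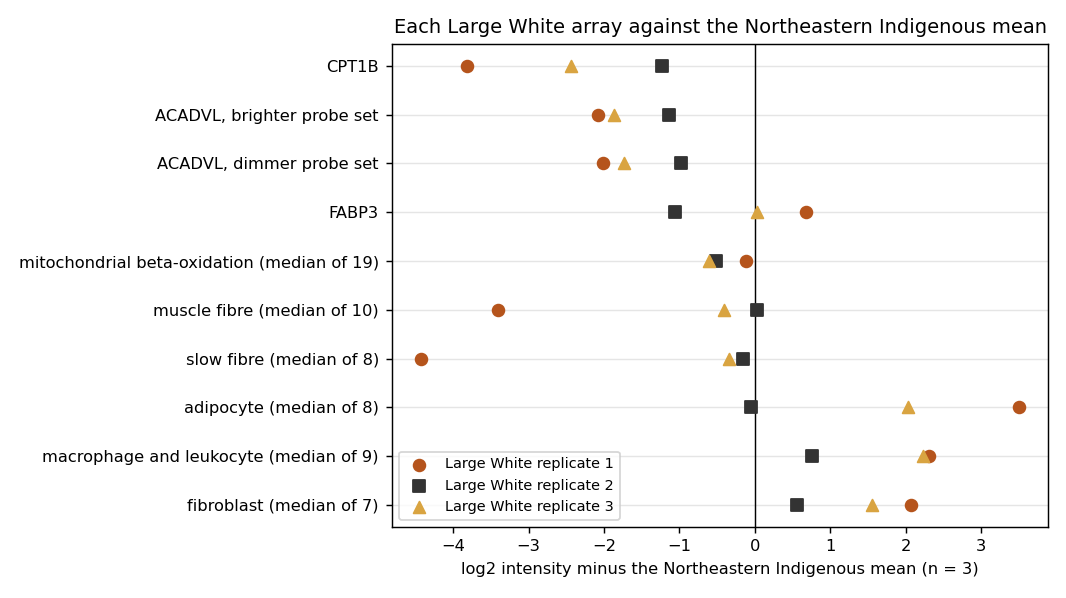
Log2 intensity of each Large White array minus the Northeastern Indigenous mean (horizontal axis, n = 3) for the 4 member probe sets and for the medians of 6 gene lists. On replicate 2 (squares) the members lie from -1.23 to -0.99 while the muscle fibre and adipocyte medians lie at 0.03 and -0.05. On replicate 1 (circles) CPT1B lies at -3.81 and FABP3 at 0.68.

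FABP4, the fat-cell carrier, read 14.66, 11.88 and 14.42 on Large White replicates 1, 2 and 3, against 12.00 ± 0.35 (SD, n = 3) in Northeastern Indigenous boars, a difference of -1.66 ± 0.70 (SE). FABP5, the epidermal form, read 14.05, 12.73 and 13.25 against 12.87 ± 0.08, a difference of -0.47 ± 0.33 (SE). Neither passed (limma adjusted p = 0.266 and 0.411). On Large White replicate 2 FABP4 and FABP5 lay within 0.15 of the Northeastern Indigenous mean, at 0.12 and 0.14 below it, where FABP3 lay 1.06 below. A second FABP5 probe set read 13.80, 12.60 and 12.39 on the Large White replicates, of which replicate 2 lay 0.11 above its Northeastern Indigenous mean and replicate 3 was the lowest. The other 6 family genes of the list were not tested here.

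Genes of uptake and activation, the step before the carnitine shuttle, went in both directions. Of 7 tested genes 0 passed, 3 had positive and 4 negative differences, with a median of -0.29. ACSL1, the main acyl-CoA synthetase of oxidative tissue, differed by 0.60 ± 0.38 (SE), and its Large White readings were 13.15, 11.66 and 11.98 against 12.87 ± 0.14 (SD, n = 3). Like FABP3 after quantile normalization, ACSL1 was brightest on Large White replicate 1 and dimmest on replicate 2, where it lay 1.20 below the Northeastern Indigenous mean. ACSL5, another acyl-CoA synthetase, differed by -1.04 ± 0.30 and DBI, the acyl-CoA binding protein, by -0.91 ± 0.36. GOT2, an aspartate aminotransferase also described at the cell surface, differed by 0.90 ± 0.29. LPL, which frees fatty acids from circulating lipoproteins, differed by -0.97 ± 0.81, but lay 1.01 higher in the Northeastern Indigenous mean than on Large White replicate 2. SLC27A1, a fatty acid transport protein, was under the filter on dim probe sets, and CD36 was not analysed here.

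The other carnitine shuttle genes went in both directions. Of 5 tested genes 0 passed, 3 had positive and 2 negative differences, with a median of 0.33. CPT1A, the liver form of the same transferase, differed by -0.59 ± 0.51 (SE), from 8.84 ± 0.43 in the control breed to 8.25 ± 0.97 (SD, n = 3 per breed). CPT2, which rebuilds acyl-CoA inside the mitochondrion, differed by 0.33 ± 0.46, and SLC25A20, the carnitine-acylcarnitine exchanger, by 0.45 ± 0.31. CRAT, the acetyl-group transferase, differed by 1.23 ± 0.66 and SLC22A5, the carnitine importer of the cell membrane, by -1.19 ± 0.29, with no overlap between breeds. Against Large White replicate 2 alone only SLC25A20, of these 5, had a positive distance, at 0.28, and the median was -0.32. The difference between CPT1B and these genes was not tested.

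Most mitochondrial beta-oxidation genes lay in the direction of ACADVL, with smaller differences. Of 19 tested genes 0 passed, 14 (73.7%) had a positive difference against 55.8% of all probe sets, and the median was 0.52 against 0.10. In 7 genes (36.8%) the breeds did not overlap with Northeastern Indigenous boars higher, against 14.2% of all probe sets. In 1 of the 19 they did not overlap with Northeastern Indigenous boars lower, against 10.9% of all probe sets. The genes with the smallest unadjusted p were ETFA, which passes electrons from the acyl-CoA dehydrogenases on, at 0.58 ± 0.17 (SE), ACADS, the short-chain dehydrogenase, at 0.97 ± 0.29, ACADM, the medium-chain dehydrogenase, at 0.47 ± 0.15, and ECI2, an enoyl-CoA isomerase, at 1.50 ± 0.47. All 4 had a limma adjusted p from 0.224 to 0.227. ACADL, the long-chain dehydrogenase, was at -0.17 ± 0.38. HADHA and HADHB, the subunits of the trifunctional protein that acts after ACADVL, were at 0.52 ± 0.26 and 0.65 ± 0.26 (limma adjusted p = 0.303 and 0.260).

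The beta-oxidation list lay in the same direction against Large White replicate 2 alone. There the median distance was 0.51, and 17 of 19 genes had a positive distance, compared with 49.4% of all probe sets. Replicate 2 lay below every Northeastern Indigenous array for 15 of the 19 (78.9%), compared with 30% of all probe sets. As deposited it did so for 16 of 19 (84.2%, against 29.1%). ACADVL was not counted in the list. Its probe sets lay at 1.14 and 0.99, on either side of ECI2, which had the largest distance of the 19 at 1.06. These genes share 6 arrays and are not independent of each other, and replicate 2 is 1 animal.

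**Figure D4:**
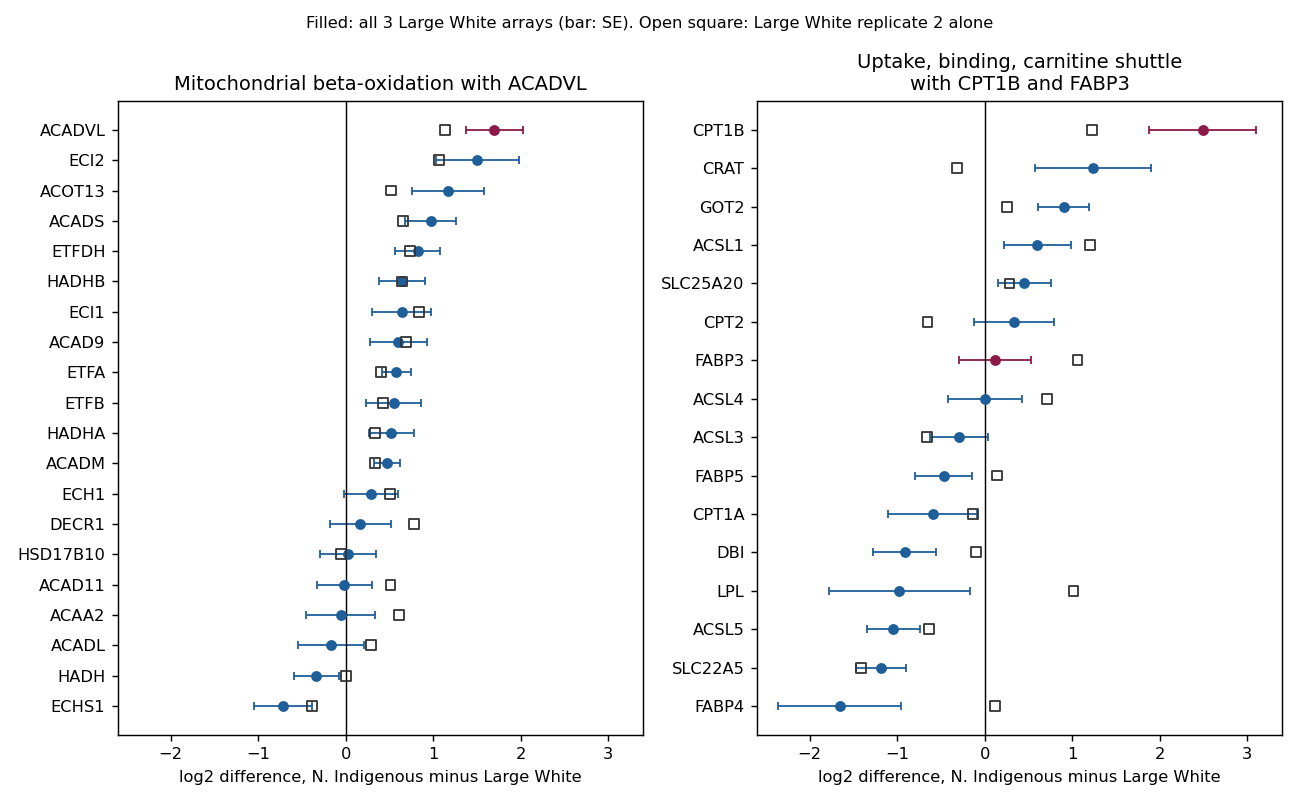
Log2 difference, Northeastern Indigenous minus Large White (horizontal axes), for beta-oxidation genes with ACADVL on the left and for uptake, binding and carnitine shuttle genes with CPT1B and FABP3 on the right. Filled points use all 3 Large White arrays with bars of 1 SE, dark red marks the members, and open squares use Large White replicate 2 alone. ACADVL at 1.70 and CPT1B at 2.49 lie highest in their panels, and FABP3 lies at 0.12 with its open square at 1.06.

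In the list for control of CPT1B activity through malonyl-CoA and AMP-activated protein kinase, the tested genes were subunits of the kinase and STK11. They were mixed. Of 8 tested genes 0 passed, 4 were positive and 4 negative, with a median of 0.18. PRKAA2, the catalytic subunit prominent in muscle, differed by 2.12 ± 1.12 (SE), from Large White readings of 7.84, 12.63 and 11.73 against 12.86 ± 0.27 (SD, n = 3), and by 0.23 against replicate 2 alone. PRKAG1, a regulatory subunit, differed by 0.59 ± 0.27 with no overlap, although its other probe set tested overlapped, PRKAB2 by 1.30 ± 0.80 and STK11, an upstream kinase, by 0.48 ± 0.43. ACACB, which makes the malonyl-CoA that inhibits CPT1B, and MLYCD, which removes it, were not analysed here. ACACA was not tested either, so none of the malonyl-CoA genes of the list was tested.

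Among 9 tested transcriptional regulators 0 passed, with 5 positive and 4 negative and a median of 0.31. PPARGC1A, the coactivator of oxidative metabolism, read 4.03, 8.80 and 7.09 on the Large White replicates against 9.35 ± 0.46 (SD, n = 3). This is the order of Large White arrays of CPT1B and also of the muscle fibre median. The reading of 4.03 lay under the filter's limit of 5.85 for the mean of a probe set. PPARGC1A differed by 2.71 ± 1.09 (SE; limma adjusted p = 0.255), and by 0.55 against replicate 2. TFAM, the mitochondrial transcription factor, differed by 0.70 ± 0.24 without overlap, although its other 3 probe sets tested overlapped. RXRG, a partner of PPARs, differed by 1.43 ± 0.69, PPARD by 0.31 ± 0.45 and PPARG, the fat-cell receptor, by -3.80 ± 1.33. The 2 probe sets of PPARA were under the filter, and ESRRA was not analysed here.

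Of 4 tested PPAR target genes 0 passed, and the values varied within Northeastern Indigenous boars as well. PDK4, which blocks glucose oxidation, read 9.39, 7.86 and 12.47 on Northeastern Indigenous replicates 1, 2 and 3 and differed by 1.43 ± 1.15 (SE). UCP3, a mitochondrial carrier of muscle, read 9.70, 7.35 and 10.45 there and differed by 0.83 ± 0.77. The members did not vary so on these 3 arrays, where their SDs lay between 0.17 and 0.28. PLIN2, a lipid droplet coat protein, differed by -0.84 ± 0.58 and ANGPTL4, an inhibitor of LPL, by -0.44 ± 0.43, with a second probe set of opposite sign at 0.31.

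Peroxisomal oxidation, the route for fatty acids that bypass CPT1B, had 0 of 6 tested genes called, 3 positive and 3 negative, with a median of -0.10. ACAA1, the peroxisomal thiolase, read 13.41, 8.95 and 12.19 on the Large White replicates against 8.87 ± 0.14 (SD, n = 3) and differed by -2.64 ± 1.02 (SE). HSD17B4, the bifunctional enzyme, differed by -1.32 ± 0.67, ACOX2, an acyl-CoA oxidase of branched chains and bile acid precursors, by 0.41 ± 0.29 and ABCD3, a peroxisomal importer, by 0.60 ± 0.55, while its other 2 probe sets tested were at -0.10 and -0.22. ACAA1 and HSD17B4 had the order of Large White arrays of the adipocyte markers, the reverse of CPT1B.

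The genes with the most similar profile to each member were found by Pearson r over the 6 arrays among 5226 named genes, on quantile normalized values. This is a description of shared order with no test. For CPT1B they were USP11, COQ9, MRPS27, E2F3 and TIMM13, with r from 0.99 to 1.00. COQ9 serves coenzyme Q synthesis, MRPS27 belongs to the mitochondrial ribosome and TIMM13 to mitochondrial protein import. For ACADVL they were ISOC2, ATP5D, DLD, NDUFS7 and FDX1, with r from 0.99 to 1.00. ATP5D is a subunit of ATP synthase, DLD the lipoamide dehydrogenase of 2-oxoacid complexes, NDUFS7 a subunit of complex I and FDX1 a mitochondrial ferredoxin.

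For FABP3 the most similar genes were UBA2, ADGRL4, ATRN, RAD51AP1 and TRIM44, with r from 0.97 to 0.98. UBA2 activates SUMO and ADGRL4 is an adhesion receptor of endothelium. Their breed differences lay between -0.05 and 0.09. An r above 0.9 was reached by 693 genes with CPT1B, 369 with ACADVL and 59 with FABP3. CPT1B and ACADVL correlated with each other at r = 0.96, and with FABP3 at -0.39 and -0.17. All of these r values used quantile normalized values. FABP3 ordered the arrays differently as deposited, and its r values on that scale, signs included, were not computed. All of these points share the same 6 arrays.

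**Figure D5:**
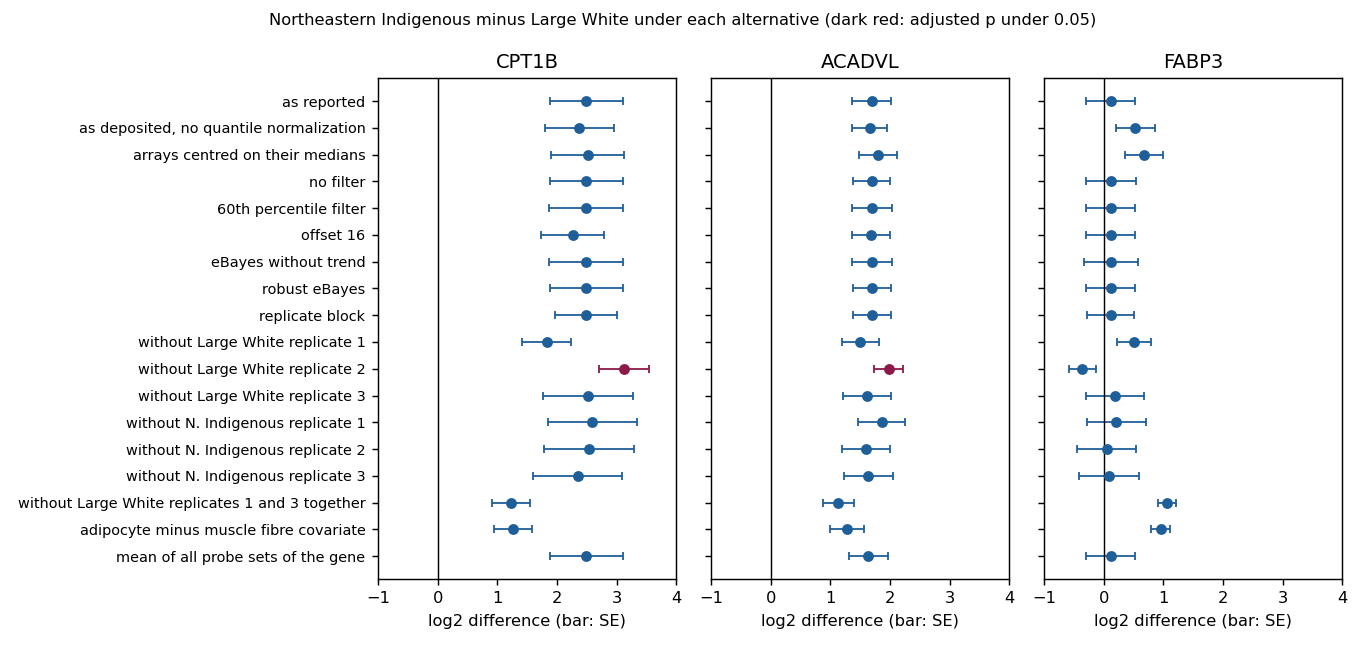
Log2 difference, Northeastern Indigenous minus Large White (horizontal axes, bars of 1 SE), of CPT1B, ACADVL and FABP3 under each processing alternative (rows; N. Indigenous stands for Northeastern Indigenous). CPT1B and ACADVL stay above 0 in all rows, from 1.23 to 3.12 and from 1.14 to 1.98, and dark red marks the fit without Large White replicate 2, where they passed. FABP3 runs from -0.36 without Large White replicate 2 to 1.06 without Large White replicates 1 and 3, both on quantile normalized values.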

How the data were processed

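The values deposited by the authors are linear intensities of 24123 probe sets, 1 for each of the 6 arrays. The software is not given in the sources used here. The mean without the lowest and highest 2% was 499.8 to 499.9 on every array, so arrays had been scaled. The 124 control probe sets were left out of all comparisons. Intensities were taken as log2, quantile normalized because the array medians spanned 0.35, and filtered at the 40th percentile of mean log2 intensity, leaving 14399 probe sets. Limma 3.58.1 in R 4.3.3 (lmFit, eBayes with intensity trend) fitted breed (two-sided tests, residual degrees of freedom 4) and was tested on simulated data. The number of arrays limits the precision. A gene with several probe sets is represented by the one of highest mean.

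Symbols came from the platform annotation (10069 probe sets with 1 symbol, 198 with several, 13732 with none), and 9961 were matched by gene identifier to RefSeq's table of Sscrofa11.1, which changed 0 symbols. Coordinates are left out, since a genome build is not given in the sources used here.

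The members, the 8 pathway and 7 marker lists and the naming rule were chosen with earlier results of these data known. The rule names every member probe set, the 5 genes most correlated with each member, up to 4 genes per pathway list by unadjusted p, 22 fixed genes where tested, and markers in fixed order. The alternatives were other scalings, filters, an offset of 16, variance priors, the replicate block, leaving out arrays, a marker covariate and averaged probe sets.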

Additional observations from a re-analysis of the deposited data

How the results depend on the processing

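CPT1B and ACADVL kept a positive difference under all 17 alternatives, from 1.23 to 3.12 and from 1.14 to 1.98, and their adjusted p stayed above 0.05 in 16 of them. The exception was the fit without Large White replicate 2, where CPT1B was at 3.12 and ACADVL at 1.98, both called. Filters, variance priors and the replicate block cannot move a difference, so those fits do not test its sign. Where the breeds do not overlap, as for CPT1B and ACADVL, leaving out arrays cannot change the sign either. FABP3 was positive in 16 of 17 and turned to -0.36 without Large White replicate 2, on quantile normalized values. As deposited, its Northeastern Indigenous mean lay above Large White replicates 1 and 3, so this sign depended on the scaling. Leaving out 1 array at a time gave 1.83 to 3.12 for CPT1B, 1.50 to 1.98 for ACADVL and -0.36 to 0.51 for FABP3. The count of called probe sets ranged from 0 to 4421 over these fits, with 1 without Large White replicate 1 and 4421 without replicate 2. It was 1 with arrays centred on their medians and 1 with the marker covariate, and 0 under the other alternatives that give a count, which leaves out averaged probe sets. For all of these the cause was not tested. The deviations of same-numbered arrays of the breeds correlated at r = -0.02, -0.16 and -0.11, which cannot exclude a pairing of the animals. The labels number the replicates and name no pairs. With the replicate block the differences were unchanged at 2.49, 1.70 and 0.12, with adjusted p of 0.336, 0.336 and 0.884 and 0 probe sets called. Over these fits of 6 or fewer arrays the adjusted p ranged from 0.0068 to 0.542 for CPT1B, 0.0061 to 0.542 for ACADVL and 0.162 to 0.962 for FABP3. Counts against Large White replicate 2 under other scalings were added after seeing the data. The signal over background of single probe sets is not known here.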
